A study of Mus musculus with 2 samples.

Results

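The 41 genes described here encode the cyclins, cyclin-dependent kinases (CDKs), CDK inhibitors, retinoblastoma-family pocket proteins, E2F and DP factors, CDC25 phosphatases, WEE kinases and MYC factors of the mouse. They are defined by gene symbol and are 41 of the 43346 mouse genes in the tables. The material was total RNA of facial prominences from healthy B6NCrl mouse embryos of embryonic day 12.5. These prominences are the swellings that form the upper face and jaws. The study has 1 group of 2 libraries and no genetic change or treatment. Replicate 1 came from a pool of 120 embryos and replicate 2 from a separate pool of 88, each holding both sexes, and each library was made from 10 ng of RNA. With 1 group there is no contrast between conditions and no test across samples, so each value is given with its spread over the 2 pools. The pools blend many cell types, and more cells of a type cannot be told apart from more RNA per cell in any level below.

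The cell cycle is driven by CDKs, which are active only when bound to a cyclin. D-type cyclins with CDK4 or CDK6 act early in G1, E-type cyclins with CDK2 act at entry into S phase, and A- and B-type cyclins with CDK2 or CDK1 act in S phase, G2 and mitosis. Active G1 kinases phosphorylate the pocket proteins, which otherwise hold E2F factors in check, and MYC factors drive growth and division upstream. In the embryonic face, proliferation of neural crest-derived mesenchyme and of its covering epithelium makes the prominences large enough to meet and fuse.

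Promoter sequences of the family members whose letters bear most on this circuit are shown first, since E2F and MYC factors act on promoters of genes in this same set. RefSeq promoters (build GRCm38.p6, 250 bases before to 50 bases after a start site) were found for 30 of the 41 genes, as 38 promoters. Capitals mark matches on either strand, and positions count from the start site to the first letter of a match. The Cdk4 promoter, chr10:127063335-127063534 on the plus strand, is shown for its 4 E-boxes (CACGTG, the letters that MYC with MAX binds), at -172, -118, -98 and -11. The Cdk1 window, chr10:69352913-69353052 on the minus strand, holds E2F letters at -131, CCAAT boxes at -80 and -48 (printed as ATTGG, which reads CCAAT on the opposite strand) and TTTGAA, a form of the cell cycle homology region (CHR), at -71 and -15. The Ccnb2 window, chr9:70421555-70421654 on the minus strand, has 3 CCAAT boxes. The Mycn window, chr12:12941989-12942027 on the minus strand, has 3 E2F matches, of which those at -183 and -179 overlap, and those of Rbl1 (chr2:157204537-157204560, minus strand) and Cdc25a (chr9:109875504-109875527, plus strand) have 1 each.
Cdk4: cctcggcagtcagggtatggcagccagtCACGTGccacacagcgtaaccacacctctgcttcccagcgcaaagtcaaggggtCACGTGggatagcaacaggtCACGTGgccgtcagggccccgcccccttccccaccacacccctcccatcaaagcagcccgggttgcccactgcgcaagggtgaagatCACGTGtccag
Cdk1: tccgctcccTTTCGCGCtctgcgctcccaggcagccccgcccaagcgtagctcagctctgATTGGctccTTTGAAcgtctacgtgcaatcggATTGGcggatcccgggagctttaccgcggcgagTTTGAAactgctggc
Ccnb2: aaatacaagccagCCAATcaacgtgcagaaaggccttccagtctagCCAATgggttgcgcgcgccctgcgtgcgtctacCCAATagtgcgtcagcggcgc
Mycn: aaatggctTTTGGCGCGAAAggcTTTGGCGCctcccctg
Rbl1: aaggcgatTTTCGCGCgctttgtc
Cdc25a: gaattccgTTTGGCGCcaactagg

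The E2F letters searched were TTTCCCGC, TTTGGCGC, TTTCGCGC and TTTGCCGC, on both strands. They occurred in 11 of the 38 promoters (28.9%), from 10 genes, and in 2.26% of all 32851 promoters of that length. Those 10 genes were Cdc25a, Cdk1, Cdk2, Cdkn2a, E2f2, E2f3, E2f7, Mycn, Rbl1 and Tfdp1. The Tfdp1 promoters among the 11, chr8:13338501-13338800 and chr8:13338554-13338853, overlap and hold the same match. Such a match is a run of letters in a fixed window and was not measured as a bound site. Cdkn2a, the gene that was not detected here, has more than a single promoter in this set. Its E2F match lies at -99 in the promoter chr4:89294570-89294869, in a window at chr4:89294703-89294726 on the minus strand. Its other promoter with a match, chr4:89282143-89282442, held a CCAAT box and no E2F letters.
Cdkn2a: tgggaagcTTTCCCGCgcgactgg

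E-boxes occurred in 6 of the 38 promoters (15.8%), in Cdk4, Cdk6, Cdk7, Cdkn2c, E2f3 and Tfdp1, against 7.15% of all promoters. A promoter with at least 4 E-boxes was rare, at 8 of 32851 (0.0244%), and that of Cdk4 was among those 8. CCAAT boxes (CCAAT on either strand) were in 17 of the 38 (44.7%) against 37.4% of all, and 5 promoters (13.2%) had at least 3 against 3.37% of all. CHR letters (TTTGAA or TTCGAA) were in 9 (23.7%) against 19.2%. The shares of CCAAT and CHR letters among these 38 promoters therefore lay nearer to those of all promoters than did the share of E2F letters. The comparison leaves out the 11 genes without a promoter: Ccna2, Ccnd1, Ccnd2, Ccne2, Cdc25c, E2f4, E2f5, Myc, Pkmyt1, Rb1 and Wee1.

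Levels are given in TPM, transcripts relative to a fixed total, which divides the reads of a gene by its effective length and so allows genes to be compared within a library. Of the 41 genes, 40 reached at least 1 TPM in both libraries (97.6%), where 61.8% of 21461 protein-coding genes did. A mean of at least 10 TPM was reached by 36 genes (87.8%), against a background of 42.4%. There were 10 genes at a mean of 100 TPM or more, 26 from 10 to under 100, and 5 below 10. The median over the 41 genes was 40.1 TPM in replicate 1 and 43.2 TPM in replicate 2, and the median of their mean levels was 41.1 TPM. The median was 5.22 TPM over all protein-coding genes and 21.3 TPM over the 61.8% named above. The 41 genes held 0.439% of all TPM in replicate 1 and 0.447% in replicate 2.

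**Figure D1:**
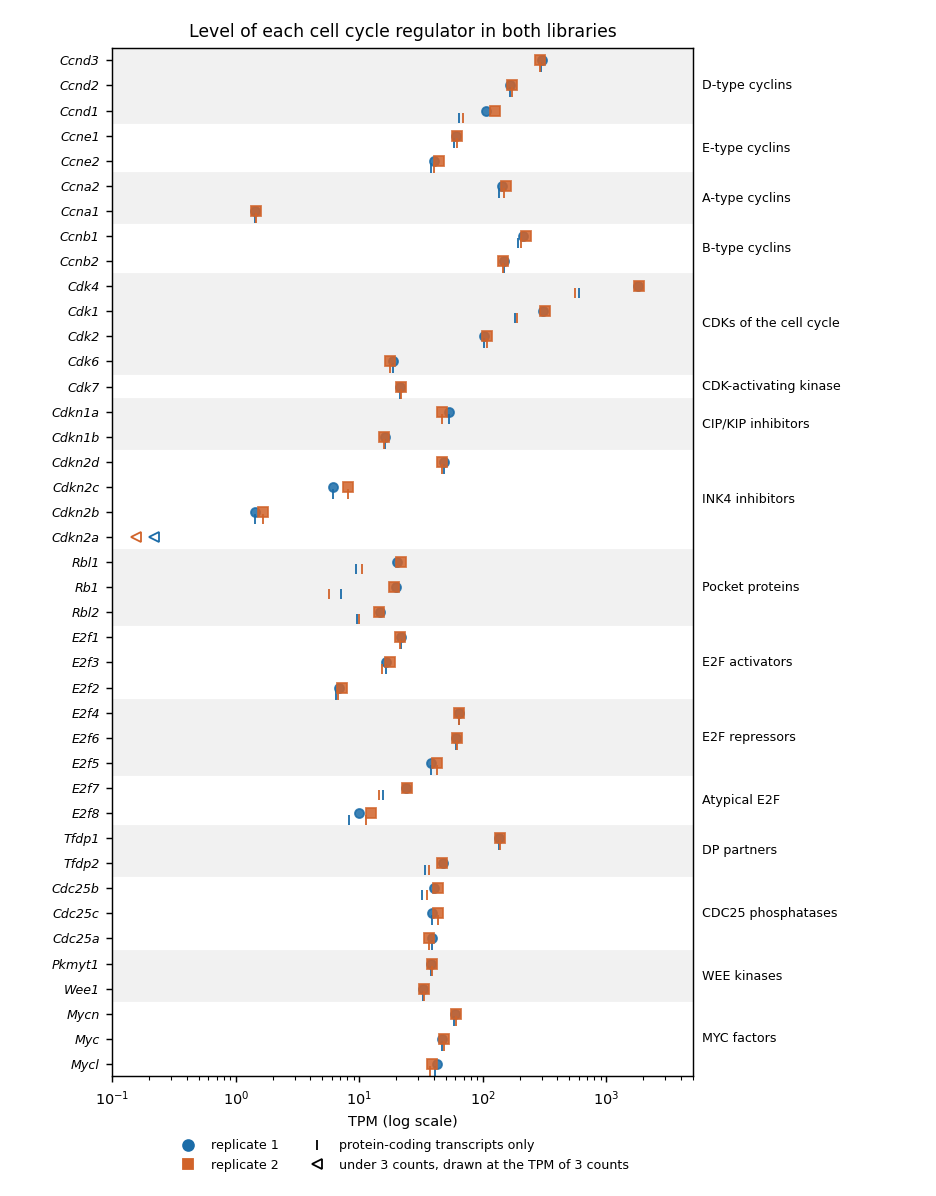
TPM (log axis) of each of the 41 genes, grouped by family, in replicate 1 (circles) and replicate 2 (squares), with short vertical ticks for protein-coding transcripts only and open triangles for Cdkn2a, drawn at the TPM of 3 counts. Cdk4 stands apart at 1820 and 1827 TPM, its protein-coding ticks lie at 601 and 561 TPM, and the 2 libraries nearly coincide for most genes.

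Within families, 37 pairs of paralogs were compared by the log2 ratio of their TPM in each library. A ratio was counted as a difference when its mean over the libraries lay beyond 1 or -1 and both libraries had that sign, which 19 pairs met. The share of such pairs among other genes was not computed, so this number does not set these families apart. In 35 pairs the order of the paralogs was the same in both libraries, 16 of these being under the threshold, and in the other 2 pairs, both among the CDC25 phosphatases, it was not. Of the 40 neighbours in the order of all 41 genes by level, 17 had ranges over the libraries that overlapped. Over all transcripts, the order from Cdk4 through Cdk1, Ccnd3, Ccnb1 and Ccnd2 to the genes below was without overlap. From Ccne2 down to Cdc25a, each of 7 genes overlapped its neighbour. By protein-coding transcripts alone, Cdk1, at a mean of 186.9 TPM, was below Ccnd3 at 292.1 TPM and Ccnb1 at 199.1 TPM. By counts not divided by length, Cdk1 was below Ccnd3, Ccnb1 and Ccnd2.

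**Figure D2:**
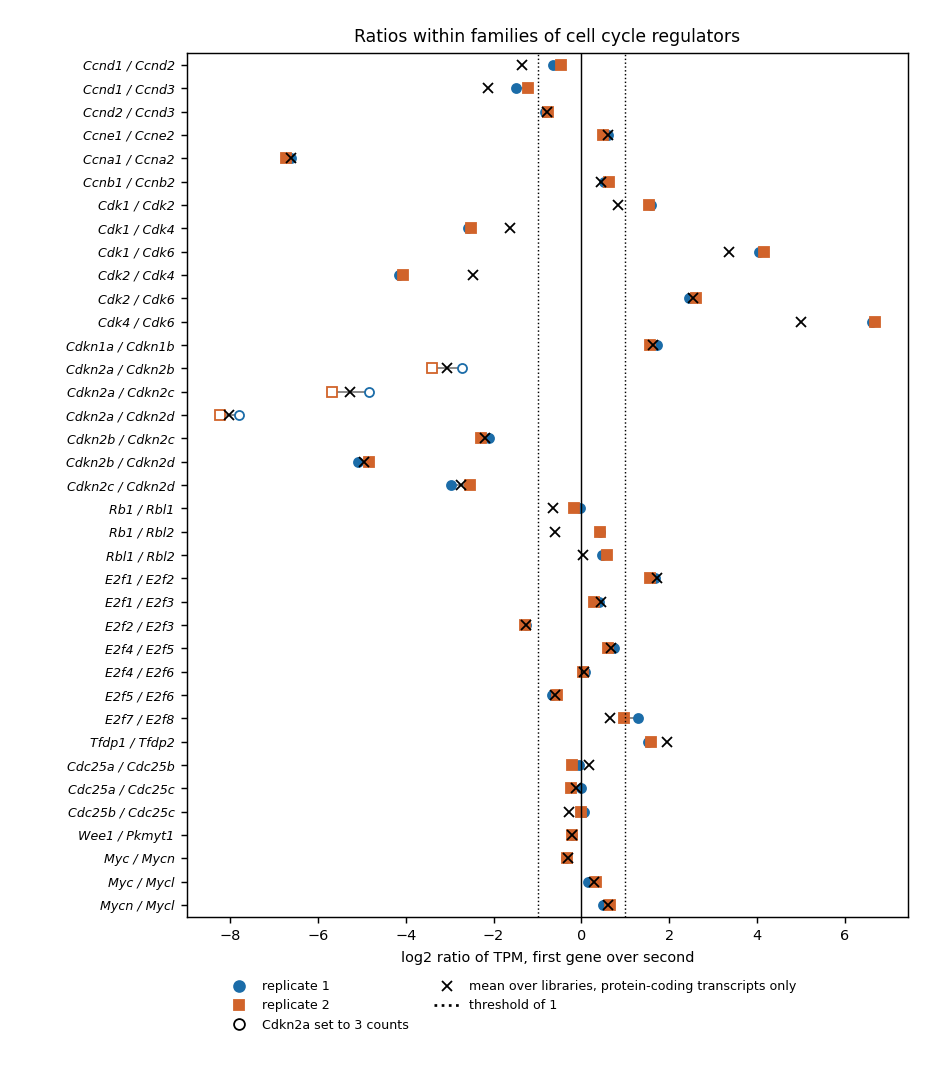
Log2 ratio of TPM for the 37 pairs of paralogs in replicate 1 (circles) and replicate 2 (squares), with crosses for the mean over protein-coding transcripts only, open symbols where Cdkn2a was set to 3 counts and dotted lines at the threshold of 1. The 19 pairs that differed lie outside the dotted lines by their mean, and the crosses of Ccnd1/Ccnd2 and Cdk1/Cdk2 lie on the other side of a line from their points.

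All 3 D-type cyclins, the sensors that link growth signals to CDK4 and CDK6, were abundant. Ccnd3 (chr17:47505051-47599691, plus strand) was at 300 and 293 TPM, which made it the highest of the 3 in both libraries. Ccnd2 (chr6:127125162-127152193, minus strand) was at 168 and 173 TPM. Ccnd1 (chr7:144929931-144939925, minus strand) was at 106 and 126 TPM, the lowest of the 3 and the one with the widest gap between the pools. Ccnd3 took 50.9% ± 2.00 of the D-cyclin total of 583 ± 12.7 TPM (SD, n = 2 here and throughout), Ccnd2 29.3% ± 0.07 and Ccnd1 19.9% ± 1.93. Ccnd1 was below Ccnd3 by a log2 ratio of -1.36 ± 0.20, which passed the threshold. The ratios of Ccnd1 to Ccnd2, -0.56 ± 0.14, and of Ccnd2 to Ccnd3, -0.80 ± 0.06, kept their sign in both libraries but did not pass. By protein-coding transcripts alone, the ratio of Ccnd1 to Ccnd2 was -1.36 ± 0.04 and passed. Without division by length, Ccnd2, which has the longest effective length of the 3, was above Ccnd3 by 0.80 on the log2 scale.

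The E-type cyclins, partners of CDK2 at the start of S phase, were lower than the D-type. Ccne1 was at 60.9 and 62.1 TPM and Ccne2 at 40.1 and 44.2 TPM. Their ranges did not overlap, but the log2 ratio of 0.55 ± 0.08 was under the threshold. The D-cyclin total exceeded the E-cyclin total of 104 ± 3.78 TPM 5.63-fold.

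The A-type cyclins formed the most unequal family among the cyclins. Ccna2, which acts in S phase and G2 in dividing somatic cells, was at 142 and 155 TPM. Ccna1, known mainly from the male germ line, was at 1.44 and 1.46 TPM, from 37 and 53 counts. Ccna2 was 102-fold higher, with a log2 ratio of Ccna1 to Ccna2 of -6.67 ± 0.08.

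B-type cyclins, the partners of CDK1 in mitosis, were both high. Ccnb1 was at 210 and 225 TPM and Ccnb2 at 148 and 146 TPM, with a log2 ratio of 0.56 ± 0.08 that did not pass the threshold. Their sum of 364 ± 8.46 TPM was 3.52-fold the E-cyclin sum. Processed pseudogenes of cyclins drew few counts: Ccnb1-ps had 29.3 and 27.4, Ccnb2-ps 65 and 91, and Ccnd3-ps 1 and 5. A read that matches both a gene and its near-identical copy is shared between them, so such a split is uncertain. Counts of Ccnb1 and Ccnb1-ps were not whole numbers, whereas those of Ccnb2 and Ccnb2-ps were whole in both libraries. The pseudogene counts are small beside those of Ccnb1, Ccnb2 and Ccnd3.

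Cdk4, the G1 kinase bound by D-type cyclins, was the most abundant of the 41 genes and rank 23 among protein-coding genes by mean TPM over all transcripts. Its gene (ENSMUSG00000006728, chr10:127063534-127067920, plus strand) was at 1820 and 1827 TPM, nearly the same in both pools. Cdk1, the mitotic kinase (chr10:69335146-69352938, minus strand), followed at 306 and 317 TPM. Cdk2, the kinase of cyclins E and A, was at 102 and 109 TPM. Cdk6, the other kinase of D-type cyclins, was at 18.6 and 17.7 TPM. Cdk4 exceeded Cdk6 100-fold, at a log2 ratio of 6.65 ± 0.06. All 6 ratios among these 4 kinases passed the threshold, including Cdk1 over Cdk2 at 1.57 ± 0.03. By protein-coding transcripts alone, Cdk4 over Cdk6 was 5.00 ± 0.02 and Cdk1 over Cdk2 was 0.83 ± 0.03, which no longer passed. By counts not divided by length, Cdk4 over Cdk6 was 4.43 and Cdk1 over Cdk2 was 0.20. Cdk7, the kinase that activates other CDKs and also phosphorylates RNA polymerase II, was at 21.4 and 21.9 TPM.

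Of the CDK inhibitors of the CIP/KIP family, which bind cyclin-CDK complexes, Cdkn1a (p21) was at 53.5 and 46.6 TPM. Cdkn1b (p27) was lower, at 16.2 and 15.9 TPM in the respective libraries. The log2 ratio of 1.64 ± 0.12 passed the threshold per length, but by counts not divided by length it was 0.00. Cdkn1c (p57), which belongs to the same family but was listed with the other pathway genes, was at 1054 and 1064 TPM, far above both.

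The INK4 inhibitors, which bind CDK4 and CDK6 and displace D-type cyclins, covered the widest range of any family. Cdkn2d (p19INK4d) was at 48.2 and 47.1 TPM and took 84.6% ± 2.40 of the family total. Cdkn2c (p18) was at 6.16 and 8.07 TPM. Cdkn2b (p15) was at 1.42 and 1.65 TPM, from 32 and 53 counts. Cdkn2a (ENSMUSG00000044303, chr4:89274471-89294653, minus strand), the gene of p16INK4a and p19ARF, had 1 count in replicate 1 and 0 in replicate 2 and was not detected. In replicate 2, a count of 0 allows up to 3 counts, or 0.156 TPM for this gene, and in replicate 1 the exact 95% counting interval of the 1 count reached 0.401 TPM. Against that limit in replicate 2, Cdkn2d was at least 302-fold higher, Cdkn2c at least 51.6-fold and Cdkn2b at least 10.6-fold. In replicate 1 the ratios to the 1 count of Cdkn2a were 670 for Cdkn2d (counting interval 120 to 26477), 85.7 for Cdkn2c (15.2 to 3399) and 19.7 for Cdkn2b (3.29 to 801). All 3 pairs with Cdkn2a were past the threshold when Cdkn2a was set to 3 counts in both libraries. The remaining ratios all passed the threshold too, at -2.20 ± 0.12 for Cdkn2b to Cdkn2c, -2.76 ± 0.30 for Cdkn2c to Cdkn2d and -4.96 ± 0.18 for Cdkn2b to Cdkn2d. Cdk4 and Cdk6 together exceeded the sum of the 4 INK4 genes, 56.3 ± 0.735 TPM, 32.7-fold, and by protein-coding transcripts alone 10.6-fold.

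The pocket proteins, which repress E2F target genes until they are phosphorylated, were at similar levels. Rb1 (chr14:73183673-73325822, minus strand) was at 19.8 and 19.2 TPM, Rbl1 (p107) at 20.3 and 21.6 TPM, and Rbl2 (p130) at 14.8 and 14.4 TPM. None of the 3 ratios passed the threshold, the highest being 0.52 ± 0.09 for Rbl1 to Rbl2. The order depended on which transcripts were counted: Rb1 was above Rbl2 by 0.42 ± 0.01 over all transcripts and below it, at -0.61 ± 0.26, over protein-coding transcripts alone.

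Among the E2F factors, those counted as repressors were the more abundant. Of the activators, E2f1 was at 21.8 and 21.3 TPM, E2f3 at 16.4 and 17.6 TPM and E2f2 at 6.83 and 7.18 TPM, so that E2f2 was the lowest in both libraries. E2f2 was below E2f1 (1.62 ± 0.07 for E2f1 to E2f2) and below E2f3 (-1.28 ± 0.02 for E2f2 to E2f3). Of the repressors, which act with pocket proteins or, in the case of E2f6, with Polycomb-type complexes, E2f4 was at 63.7 and 64.0 TPM, E2f6 at 60.4 and 62.1 TPM and E2f5 at 38.2 and 42.4 TPM. No ratio among these passed the threshold. The sum of E2f4, E2f5 and E2f6, 165 ± 4.39 TPM, was 3.63-fold the sum of E2f1, E2f2 and E2f3, 45.6 ± 0.792 TPM.

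The atypical factors E2f7 and E2f8, which bind DNA without a DP partner and repress E2F targets, were at 24.0 and 24.3 TPM for E2f7 and at 9.85 and 12.5 TPM for E2f8. Their log2 ratio of 1.12 ± 0.23 was past the threshold by its mean, but it was 0.96 in replicate 2 and 0.65 ± 0.41 by protein-coding transcripts. The DP partners that other E2F factors need to bind DNA were unequal as well. Tfdp1 was at 136 and 139 TPM and Tfdp2 at 47.8 and 46.4 TPM, a log2 ratio of 1.54 ± 0.05. By counts not divided by length, the ratios of E2f1 to E2f2, 0.89, and of Tfdp1 to Tfdp2, 0.48, did not pass.

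The CDC25 phosphatases, which remove the inhibitory phosphates from CDKs, were at similar levels. Cdc25a was at 38.8 and 36.9 TPM, Cdc25b at 40.4 and 43.2 TPM and Cdc25c at 38.8 and 43.5 TPM. Cdc25a and Cdc25c were equal in replicate 1, and the order of Cdc25b and Cdc25c was reversed between the libraries. The opposing kinases, which place those phosphates, were at 32.8 and 33.5 TPM for Wee1 and at 38.3 and 38.8 TPM for Pkmyt1. Their log2 ratio was -0.22 ± 0.01, small but of the same sign in both libraries.

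All 3 MYC factors, which bind E-boxes with MAX, were present at similar levels. Mycn was at 59.8 and 60.8 TPM, Myc (chr15:61985391-61990374, plus strand) at 47.1 and 48.4 TPM and Mycl at 42.6 and 38.5 TPM. This order held in both libraries, and no ratio passed the threshold. Mycn took 40.6% ± 0.84 of the summed 149 ± 1.19 TPM. The log2 ratios were -0.34 ± 0.01 for Myc to Mycn, 0.57 ± 0.12 for Mycn to Mycl and 0.24 ± 0.13 for Myc to Mycl.

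Transcript estimates, which divide the reads of a gene among its annotated transcripts, showed how much of each level came from protein-coding forms. The tables held 165 transcripts of the 41 genes. Of the 40 genes at 1 TPM or more, 29 had at least 90% of their TPM in protein-coding transcripts in both libraries, and 3 (Cdk4, Rb1 and Rbl1) had under 60% in both. By counts, protein-coding transcripts held 48.7% ± 1.58 of Cdk4, 86.6% ± 2.47 of Rb1 and 68.0% ± 0.88 of Rbl1. The leading transcript was the same in both libraries for all 40. In 10 genes it held under 60% of TPM by the mean of the libraries, namely Ccnd1, Cdk1, Cdk4, E2f7, E2f8, Myc, Mycl, Rb1, Rbl1 and Tfdp2. The same numbers over all protein-coding genes were not computed.

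**Figure D3:**
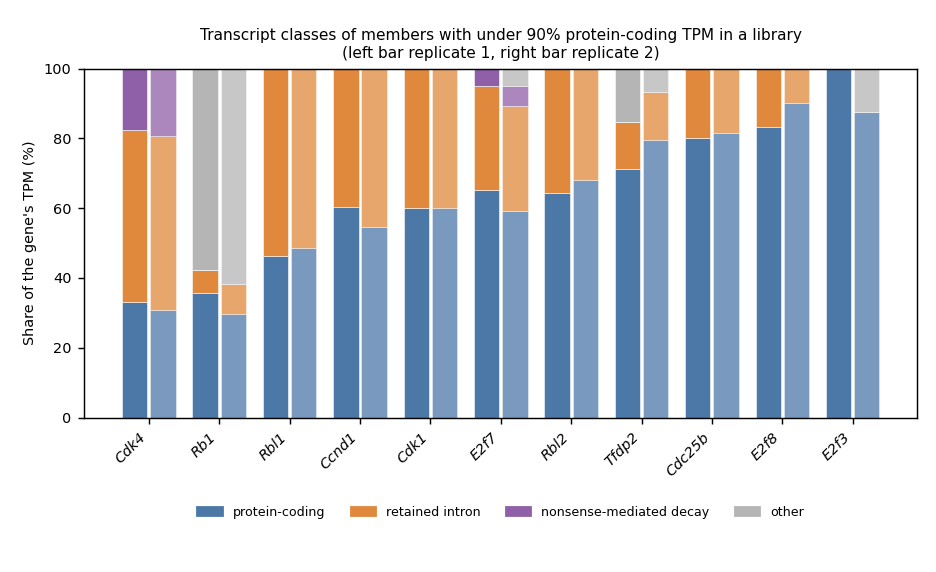
Share of TPM (%) by annotated transcript class in the 11 genes with under 90% protein-coding TPM in a library, replicate 1 as the left bar and replicate 2 as the right, lighter bar of each pair. Protein-coding transcripts hold 33.0% and 30.7% of Cdk4, and the class called other, which holds processed transcripts, takes 57.6% and 61.8% of Rb1.

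The leading transcript of Cdk4 was Cdk4-209, annotated as a retained intron of 468 bases. It held 41.2% of the TPM of the gene in replicate 1 and 41.7% in replicate 2, but 19.4% and 19.8% of its counts, since a short transcript receives more TPM per count. The coding Cdk4-205 held 20.6% and 18.5% of TPM, Cdk4-208, annotated for nonsense-mediated decay, 17.5% and 19.2%, and the coding Cdk4-201 9.41% and 9.19%. The 4 protein-coding transcripts summed to 601 and 561 TPM, still above every other member summed in that way.

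For Ccnd1, the short retained-intron transcript Ccnd1-202 (470 bases) held 39.7% and 45.4% of TPM but 6.29% and 7.80% of counts. The coding Ccnd1-201 was at 64.0 and 68.6 TPM and Ccnd1-202 at 42.2 and 57.0 TPM. Most of the gap in TPM between the pools at this gene thus lay in the short transcript. This holds for TPM only, since Ccnd1-201 held 93.7% and 92.2% of the counts. Cdk1 showed the same kind of split, with the coding Cdk1-202 at 57.0% and 56.7% of TPM and the retained introns Cdk1-203 at 19.5% and 21.8% and Cdk1-204 at 19.0% and 17.2%.

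The leading transcript of Rb1 was Rb1-206, a processed transcript of 408 bases that held 50.3% and 33.1% of TPM on 53.7 and 48.7 counts. Its exons lie entirely within exons of Lpar6 on the opposite strand. Rb1-202, which shares 93.2% of its exon bases with Rcbtb2 on the opposite strand, held 7.24% and 28.7% of TPM. The coding Rb1-201 was at 7.07 and 5.71 TPM but held 88.4% and 84.9% of the counts. Whether the libraries kept strand is not given in the sources used here, so reads of these overlapping genes cannot be told apart. In Rbl1, the coding Rbl1-201 held 46.3% and 48.6% of TPM and the retained intron Rbl1-202 a mean of 40.5% ± 0.72.

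Leading transcripts of the other genes with a divided level were protein-coding. E2f7-201 held 41.9% and 37.3% of E2f7, beside the retained intron E2f7-208 at 29.8% and 29.5%. E2f8-201 held 56.8% and 56.9% of E2f8, with the coding E2f8-202 at 26.5% and 33.2%. Tfdp2-201 held 28.3% and 29.2% of Tfdp2, which has 16 annotated transcripts in the tables. Protein-coding transcripts held 95.7% and 96.4% of the TPM of Mycl, and all 8 transcripts of Myc were coding. Myc-202 held 38.2% and 33.9% of Myc, with Myc-201 and Myc-205 at equal shares of 18.1% and 22.2% each. Mycl-202 held 52.8% and 54.3% of Mycl and Mycl-201 42.2% and 41.6%. For Cdkn2a, the 1 count was assigned to Cdkn2a-202.

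Reads shared with other genes touch 11 of the 41 genes, whose expected counts were not whole numbers in a library within a tolerance of 0.005 counts: Ccna2, Ccnb1, Ccnd1, Ccnd3, Ccne2, Cdk4, Cdk7, E2f8, Pkmyt1, Rb1 and Rbl2. Exons of 15 genes overlap those of another measured gene, in each case on the opposite strand, and 9 of the 11 are among these 15. Cdk4 shares 641 exon bases with Tspan31, which was itself at 123 and 124 TPM. Ccnd1 shares 1100 exon bases with the gene named LTO1 in the annotation, at 20.5 and 20.4 TPM. For 24 of the 41 genes, counts were whole and no such overlap was present. Shares over all protein-coding genes were not computed, so these numbers do not set the 41 genes apart.

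The libraries differed little in these genes. On the scale of log2(TPM + 1), replicate 2 minus replicate 1, none of the 40 genes with a mean of at least 1 TPM was past 1 in either direction, and 0.252% of 13477 protein-coding genes were. This count came from a threshold on size and from no test. With a background share that low, it says little about these genes in particular. The median absolute difference was 0.0454 over the 40 genes and 0.0833 over protein-coding genes at that level. Among genes at a mean of at least 10 TPM, it was 0.0416 over the 36 members and 0.0674 over 9098 protein-coding genes. Of those 36 members, 28 lay within 0.1 (77.8%), against 66.5% of the 9098. These contrasts hold for TPM as deposited. Other settings raised the median over the 40 genes to as much as 0.0698, and no background median is given for them.

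**Figure D4:**
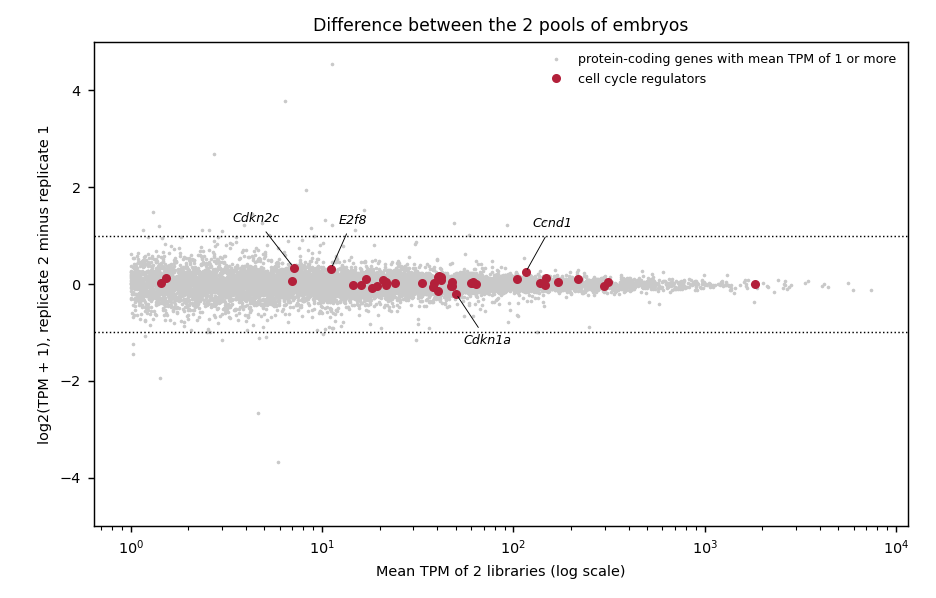
Difference between the pools on the log2(TPM + 1) scale, replicate 2 minus replicate 1, against mean TPM (log axis), for protein-coding genes at a mean of 1 TPM or more (grey) and 40 of the 41 genes (red), with dotted lines at 1 and -1. No red point is past a dotted line, and the largest gap is that of Cdkn2c at 0.34.

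The largest differences were small. Cdkn2c was higher in replicate 2 by 0.34, and its log2 ratio of TPM, 0.39, had a 95% counting interval of 0.14 to 0.64. E2f8 was higher by 0.31 and Ccnd1 by 0.24, while Cdkn1a was lower in replicate 2, at -0.20. Their counting intervals also left out 0, at 0.19 to 0.49 for E2f8, 0.19 to 0.30 for Ccnd1 and -0.33 to -0.07 for Cdkn1a. Cdk4 differed by 0.01 and E2f4 by 0.01, with intervals that held 0. These intervals cover counting error only, and n = 2 pools gives no test. In all, 28 of the 40 genes were higher in replicate 2 (25 to 28 under the other scalings), against 51.1% of protein-coding genes.

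The tissue label was checked against marker genes. All 5 markers of dividing cells were above 10 TPM and alike in the pools, with Top2a at 239 and 237 TPM and Pcna at 215 TPM in both. A mean of 10 TPM or more was reached by all 6 mesenchyme, all 4 surface epithelium and all 3 red blood cell markers. So it was by 2 of 3 neuronal markers, the exception being Elavl3. Of all protein-coding genes, 42.4% reached that level, and no list for a tissue absent from the face was examined. These counts are therefore a weak check of the label. Summarised as the median of each list, replicates 1 and 2 had 125 and 114 TPM for mesenchyme, 59.5 and 62.6 TPM for epithelium, 1504 and 1327 TPM for red blood cells and 89.9 and 68.9 TPM for neurons. Some single markers differed more between the pools than any of the 41 genes that were detected. Barx1, of proximal jaw mesenchyme, was at 177 and 88.6 TPM, and Alx1, of frontonasal mesenchyme, was at 91.9 and 134 TPM. Dlx5 was at 84.4 and 57.1 TPM and the neuronal Tubb3 at 167 and 121 TPM. Their part in the small differences above was not tested. The depth was 27890681 expected counts for replicate 1 and 39969716 for replicate 2, of which the 41 genes held 127795 and 185132.

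Other genes of the pathway were taken from 5 lists, whose counts stand beside the 42.4% of protein-coding genes at a mean of at least 10 TPM. The list medians ran from 26.1 to 110 TPM, the lowest of them near the median of 21.3 TPM over protein-coding genes that reached 1 TPM in each library. Of 15 other cyclins, 12 had a mean of at least 10 TPM, with a list median of 48.2 TPM. The highest were Ccnl2, an RNA-splicing cyclin, at 210 and 201 TPM and Ccni at 122 and 136 TPM. The lowest were Ccno, known from multiciliated cells, at 0.42 and 0.66 TPM and Ccnb3, best known from meiosis, at 0.43 and 0.27 TPM. Of 17 other CDKs and cofactors, 13 were at that level, with a median of 27.2 TPM. The small CDK-binding proteins Cks1b, at 413 and 395 TPM, and Cks2, at 252 and 234 TPM, were highest, and Cdk18, at 2.69 and 2.37 TPM, and Cdk5r1, a neuronal activator of CDK5, at 7.80 and 7.74 TPM, were lowest.

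All 15 genes of the list of other inhibitors and of protein degradation were at a mean of 10 TPM or more, with a median of 110 TPM. Cdkn1c led this list, followed by Skp1a, a core subunit of SCF ubiquitin ligases, at 776 and 774 TPM. The F-box proteins Fbxw7, which marks cyclin E and MYC for degradation, at 11.7 and 11.4 TPM, and Btrc, at 18.1 and 18.4 TPM, were lowest. A list of 11 genes named for the MuvB and DREAM complexes, B-Myb and Foxm1 also held Mybl1, Sin3a, Hdac1 and Hdac2. Of its genes, 10 were at a mean of 10 TPM or more, with list medians of 36.4 and 34.2 TPM. Rbbp4, a histone-binding subunit, at 402 and 428 TPM, and the deacetylase Hdac2, at 313 and 326 TPM, were highest, and Lin54, which binds CHR letters, at 11.1 and 11.3 TPM, and Mybl1, at 2.25 and 3.47 TPM, were lowest.

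Of 14 MYC partners and antagonists, 11 were at a mean of at least 10 TPM, with a median of 26.1 TPM, and all 14 reached 1 TPM in both libraries. The ATPases Ruvbl1, at 126 and 127 TPM, and Ruvbl2, at 108 and 107 TPM, were highest. The repressor Mnt, at 5.29 and 5.25 TPM, and the glucose-responsive factor Mlxipl, at 2.65 and 2.69 TPM, were lowest. Max, the obligate partner of all 3 MYC factors, was named outside the rule after its value was seen, because it was the remaining gene of this list under 10 TPM, at 9.01 and 8.22 TPM, below each of the 3 MYC genes.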

How the data were processed

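The deposited gene and transcript tables, 1 of each per library, were used as deposited. The title of the series says that a newer one supersedes it, so these are values of the earlier deposit. They give an expected count, an estimate of reads per gene that splits a multiply matching read, and a TPM and an FPKM value that the authors derived from it, per the file headers. Reads were aligned to mm10 with GENCODE M4, per the deposited notes. For the aligner and the counting tool, a name was not given in the sources used here. The TPM total includes spike-in RNA (6.88% and 7.57% of TPM). Columns other than these (a posterior mean TPM and lengths) were deposited too.

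Gene names, classes and coordinates came from GENCODE M21, of the same build. Python 3.11.15 with pandas 2.3.3 computed levels, ratios, shares and exact Poisson intervals at 95% (counts rounded). Levels in the text are mean ± SD, or both libraries. The library scale was also set with edgeR 4.0.16 (TMM) and DESeq2 1.42.0 (size factors) on rounded expected counts, under R 4.3.3; neither was used for a test. Scripts were tested on simulated data. The counts of the 2 libraries differed by more than sampling noise (chi-square per degree of freedom 6.26 over 15903 genes), so they were not copies or a split of the same reads. That the pools were separate rests on the labels, since libraries from the same pool can differ in this way too.

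The genes and lists were chosen with earlier results of these data known. All 41 genes are named, with the 2 highest and 2 lowest of each pathway list, and transcripts are named where the leading one held under 60% of TPM, and for Cdkn2a. Alternatives covered the TPM column, length scaling, spike-ins, thresholds, pseudocounts, scale factors and single libraries. Intervals and the 3-count limit express counting error alone: no molecular identifiers are described, so several reads may come from the same molecule. Promoters of 11 genes, and all proteins, are not analysed here.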

Additional observations from a re-analysis of the deposited data

How the results depend on the processing

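The number of the 41 genes at 1 TPM or more in both libraries was 40 under all settings except FPKM and a threshold of 2 TPM (38 each). The number at a mean of 10 or more ranged from 32 (protein-coding transcripts only, an alternative chosen after seeing the data) to 37 (scaled counts not divided by length), and was 35 to 36 with a single library. The median over the genes was 25.6 in FPKM, 63.4 as scaled counts not divided by length, 44.3 with TPM rescaled to mouse genes, and 40.1 to 43.2 with a single library. The 19 pairs past the threshold remained the same pairs with posterior mean TPM, FPKM, mouse genes only, a pseudocount of 1 TPM and without replicate 2. Without replicate 1 there were 18, E2f7/E2f8 being lost. With a threshold of 0.58 there were 22. By protein-coding transcripts there were 18, with 17 of the 19 kept. Without division by length there were again 19, but 15 were kept: Cdk1/Cdk2, Cdkn1a/Cdkn1b, E2f1/E2f2 and Tfdp1/Tfdp2 were lost and Ccnd1/Ccnd2, Ccnb1/Ccnb2, Rb1/Rbl1 and E2f5/E2f6 gained; per-gene length is the sole difference of that setting. None of the 40 genes was past 1 between the libraries under any setting, and the median absolute difference stayed between 0.0454 and 0.0698. The number of genes whose leading transcript held under 60% of TPM was 9 to 10 with a single library. Depth limits Cdkn2a, Ccna1 and Cdkn2b, whose counts are low. No paired analysis was possible because the study has 1 group.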
